A study of Danio rerio with 23 samples.

Results

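The genes described here are 8 enzymes of polyamine and arginine metabolism among the 34326 gene identifiers counted in adult zebrafish intestine. They were chosen by symbol (*sat1a.1*, *sat1a.2*, *odc1*, *amd1*, *srm*, *sms*, *oat* and *arg2*), with a loss at 21dpS and a recovery at 3dpR in view. The values of these genes in those comparisons are therefore given as a description, without a test. Of the 8 symbols, 7 were matched to 1 identifier, and *sat1a.2* was not. Intestinal RNA of single fish was sequenced in 23 libraries. All fish were siblings from 1 breeding pair. Fed controls were continuously fed, with 3 libraries from 3dpS (3 days into the starvation of the other tanks) and 4 each from 21dpS and 3dpR. Starved fish received no food for up to 21 days with 4 libraries from each of 3dpS and 21dpS. Refed fish were starved for 21 days and then fed again, with 4 libraries from 3dpR, 3 days after food was returned. Feeding was set per tank (2 fed tanks and 2 starved tanks, the latter refed later), so diet and tank cannot be told apart. The labels give an age of 81 days post-fertilization for every library, which cannot hold at all time points, as these lie days apart. Time points were therefore taken from the library names, and fish of different time points differ in age.

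Polyamines (putrescine, spermidine and spermine) are small cationic metabolites that bind nucleic acids and are needed for cell growth, and they are known for their part in the renewal of the intestinal epithelium. Arginase cleaves arginine to ornithine and urea, and ornithine decarboxylase turns ornithine into putrescine, to which spermidine and spermine synthase add groups taken from decarboxylated S-adenosylmethionine. Spermidine/spermine N1-acetyltransferase, encoded by *sat1* genes, acetylates the longer polyamines and so starts their export or breakdown, while ornithine aminotransferase diverts ornithine toward glutamate and proline.

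The libraries held from 500205 to 1236436 reads assigned to genes, with a median of 596487. Levels are given as CPM, in which the reads of a gene are scaled to a common library size with edgeR's TMM factors. The smallest count taken as detectable, 3 reads, was worth 2.43 to 6.00 CPM before the TMM factors were applied, counting error alone being considered. Levels were not divided by gene length, so those of different genes are not compared. On average 16493 reads of a library fell on *MT-ND6*, above each of 10 other mitochondrial protein genes (*MT-CO1*, the next, had 3914.74), and the strand option of the counting is not given in the sources used here. The values may therefore be, in part or mainly, counts of the antisense strand, and whether they are was not tested. Of 8 markers of intestinal epithelium 6 were matched, and none was at 0 throughout a group. Exocrine pancreas markers (14 of 16 matched) summed to 8083 CPM in library Fed1Gut1 of the 3dpS fed controls, against at most 4080 CPM in any 3dpS starved library. The fold changes of the members tested at 3dpS are also given without library Fed1Gut1. It was the only 3dpS fed control of tank 1, so values without it rest on fed fish of tank 2 alone.

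The acetyltransferase gene *sat1a.1* (ENSDARG00000035652) was the member with the most reads, 2545 over the 23 libraries and 39 to 180 in each. In the 21dpS fed controls its level was 243.1, 281.9, 292.1 and 351.9 CPM, and in the 21dpS starved fish 60.6, 71.9, 108.4 and 110.5 CPM. Every starved fish lay below every fed control, and the highest starved value was less than the lowest fed value by more than the whole range of the starved group. The means were 292 ± 45.1 and 87.8 ± 25.4 CPM (SD, n = 4 each), a 3.45-fold lower level in the starved fish (log2 fold change of -1.79, standard error (SE) 0.27). In bulk tissue, fewer cells of a type and less RNA per cell cannot be told apart.

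At 3dpR the groups lay together. Fed controls had 140.7, 144.9, 206.8 and 230.0 CPM of *sat1a.1* and refed fish 163.3, 199.9, 201.3 and 205.4 CPM, so that the values of all 4 refed fish lay within the range of the fed controls. Their means were 181 ± 44.7 and 192 ± 19.6 CPM (SD, n = 4 each), a log2 fold change of 0.08 (SE 0.23). Against the 21dpS starved fish, the refed fish had a 2.27-fold higher level (log2 fold change of 1.18, SE 0.26), and the groups did not overlap. The effect at 3dpR minus that at 21dpS was 1.87 on the log2 scale (SE 0.32, 1 fit on all 23 libraries). With 1 library left out in turn it was 1.71 to 2.00. This value is not the rise on refeeding alone. It also takes in the lower level of the fed controls at 3dpR than at 21dpS (log2 fold change of -0.70, SE 0.23). The 2 comparisons with the 21dpS starved fish share those libraries.

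**Figure D1:**
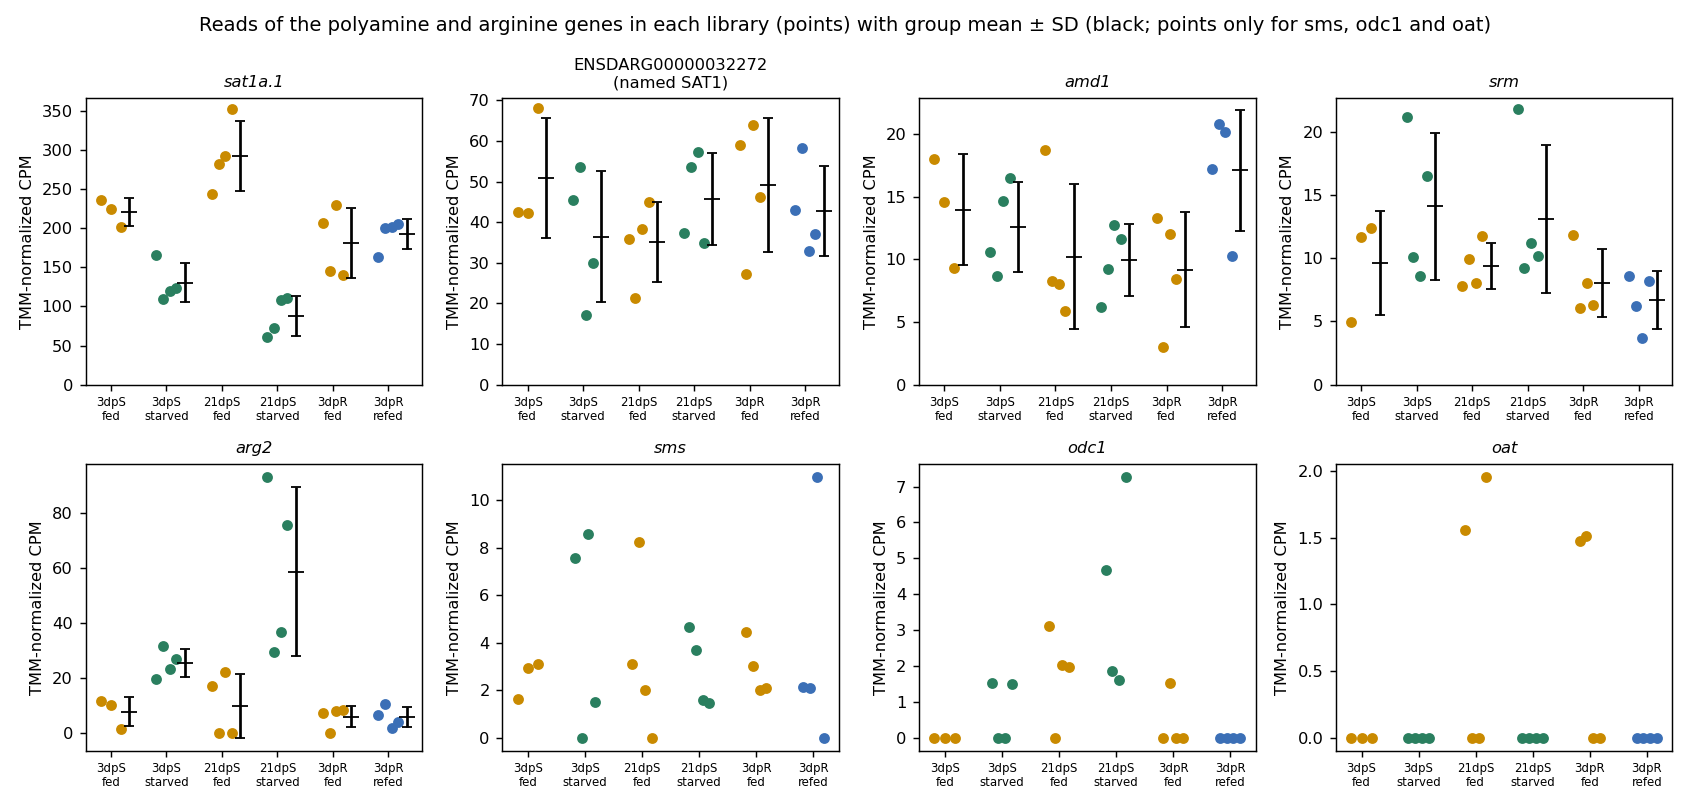
Level of each matched gene in each of the 23 libraries, in TMM-normalized CPM, by group (ochre, fed; green, starved; blue, refed). Black bars are the group mean ± SD, left out for *sms*, *odc1* and *oat*, which had libraries at 0 and few reads. The mean of the 21dpS starved fish is the lowest of the 6 groups for *sat1a.1* (87.8 CPM) and the highest for *arg2* (58.7 CPM).

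The 3dpS fed controls had 201.0, 224.2 and 236.0 CPM of *sat1a.1*. Between fed controls the log2 fold change was 0.37 (SE 0.25) at 21dpS against 3dpS, -0.70 (SE 0.23) at 3dpR against 21dpS and -0.31 (SE 0.26) at 3dpR against 3dpS. Values did not overlap in the first pair (6.7% of all genes had no overlap with higher levels at 21dpS) or the second (1.54%, lower at 3dpR). The search for a loss at 21dpS and a recovery at 3dpR favours high fed values at 21dpS and low ones at 3dpR. These differences are therefore a description too. Fed controls of different time points also differ in age, and the part of age was not tested. *sat1a.1* was the only member kept by the filter on low counts in these comparisons, and edgeR called it in none of them (unadjusted p under 0.05 in 1, at 3dpR against 21dpS; 0 by DESeq2). Of all genes tested, edgeR called 0.0588% (21dpS against 3dpS), 0% (3dpR against 21dpS, with 5.2% at an unadjusted p under 0.05 and 0.0106% by DESeq2) and 0% (3dpR against 3dpS, with 6.26% and 0.016%).

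The choice of the genes did not name 3dpS, although earlier results of these data were known when it was made. At 3dpS the starved fish had 109.9, 120.0, 124.1 and 166.3 CPM of *sat1a.1*. All lay below the 3 fed controls. The means were 220 ± 17.8 CPM in fed (SD, n = 3) and 130 ± 24.9 CPM in starved fish (SD, n = 4), a log2 fold change of -0.76 (SE 0.25). The difference did not pass the test over all genes (edgeR, p = 0.00865, adjusted p = 0.165; DESeq2, adjusted p = 0.110; exact permutation test, two-sided, p = 0.0571, where 0.0286 is the smallest possible). Without library Fed1Gut1 it was -0.70 (edgeR adjusted p = 0.184). The effect at 21dpS minus that at 3dpS was -0.96 on the log2 scale (SE 0.33). It draws on the 21dpS values, which the choice of the genes had in view, and is a description without a test. It also takes in the change of the fed controls from 3dpS to 21dpS (log2 fold change of 0.37, SE 0.25).

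In order of their means, the groups stood as 21dpS fed, 3dpS fed, 3dpR refed, 3dpR fed, 3dpS starved and 21dpS starved for *sat1a.1*. Each neighbouring pair in this order overlapped, except the 21dpS and 3dpS fed controls, where the lowest value of the one (243.1 CPM) stood just above the highest of the other (236.0 CPM). Among the 21dpS starved fish, the single fish of tank 1 had the lowest level, 60.6 CPM, and the fold change without it was -1.63.

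Epithelial markers stood lower than in fed controls both at 21dpS and at 3dpR. Among the 6 matched markers were *apoa1a* and *apoa4b.1*. The paper reports lower levels of both genes late in starvation. It proposes that this may stem in part from unusually high levels in the fed controls of that time. The summed level, and shares of it, are therefore not a measure of epithelial content alone. How far they follow that content was not tested. At 21dpS, 5 of the 6 tested epithelial markers were lower in starved fish (median log2 fold change of -0.77). edgeR called 1 and DESeq2 3, and 5 had an unadjusted p under 0.05 in edgeR. Of all genes tested there, edgeR called 2.81% and DESeq2 5.28%, and 20.9% had such a p in edgeR. The epithelial markers summed to 1777 to 2303 CPM in fed controls and 1280 to 1451 CPM in starved fish. At 3dpR, where *sat1a.1* differed by 0.08, 5 of the 6 had lower values in refed fish (median of -0.29; edgeR and DESeq2 called 0, and 1 had an unadjusted p under 0.05), and the sums were 2029 to 2466 CPM in fed and 1507 to 1872 CPM in refed fish, without overlap. The level of *sat1a.1* was 12.2% to 18.3% of this sum in the 21dpS fed controls and 4.18% to 8.47% in the starved fish, without overlap. At 3dpS these shares overlapped (9.29% to 14.2% in fed and 7.04% to 12.6% in starved fish, medians of 12.7% and 7.19%). At 3dpR they also overlapped (5.88% to 11.04% in fed and 10.7% to 11.4% in refed fish). There the median was higher in refed than in fed fish (11.04% against 7.86%). Exocrine pancreas markers were also lower at 21dpS (7 of 8 tested, median of -1.46). Of these markers edgeR called 3 and DESeq2 4, and 6 had an unadjusted p under 0.05 in edgeR. Their summed levels were 477 to 1487 CPM in fed and 359 to 736 CPM in starved fish. At 3dpR all 12 tested were lower in refed fish (median of -1.05). There edgeR called 0 and DESeq2 2, and 9 had an unadjusted p under 0.05 in edgeR. The sums were 1044 to 1920 CPM in fed and 376 to 1018 CPM in refed fish. The part of either list in the lower *sat1a.1* level was not tested.

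The second acetyltransferase symbol, *sat1a.2*, names a gene that lies next to *sat1a.1* in the RefSeq annotation of GRCz12tu. The gene name table gives the symbol SAT1 to 2 other identifiers in the counts, and neither was taken as *sat1a.2*. ENSDARG00000095908 had 0 reads in all 23 libraries. HTSeq leaves out reads that align equally well at several places by default, and whether *sat1a.1* and its neighbour share such reads was not tested. ENSDARG00000032272 had 13 to 74 reads per library, 624 in all. Its level was 21.4, 35.8, 38.3 and 45.0 CPM in the 21dpS fed controls and 34.9, 37.3, 53.5 and 57.4 CPM in the 21dpS starved fish, and the groups overlapped. This gene was not called in any of the comparisons (edgeR, log2 fold change at 3dpS of -0.47, SE 0.39, adjusted p = 0.636; at 21dpS 0.32, SE 0.32, adjusted p = 0.612; at 3dpR -0.21, SE 0.31, adjusted p = 0.879; refed against 21dpS starved -0.03, SE 0.31, adjusted p = 0.959). At 3dpS it was -0.57 without library Fed1Gut1 (edgeR adjusted p = 0.534).

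The mitochondrial arginase gene *arg2* (ENSDARG00000039269) lay on the other side. Its level in the 21dpS fed controls was 17.1, 0, 22.2 and 0 CPM (0 to 11 reads), and in the 21dpS starved fish 93.2, 29.5, 36.7 and 75.6 CPM (16 to 60 reads). Each starved fish was above each fed control, and the spread was wide in both groups. With 2 fed controls at 0 reads, *arg2* passed the filter on low counts through the starved fish. The log2 fold change was 2.50 (SE 0.80), with means of 9.82 CPM in fed and 58.7 CPM in starved fish. With 1 library left out in turn it ranged from 2.1002 to 3.15, the highest without the fed control at 22.2 CPM. A loss at 21dpS, with which the genes were listed, was thus not seen for *arg2*.

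After refeeding, *arg2* stood at 6.4, 10.4, 1.8 and 4.1 CPM, and in the 3dpR fed controls at 7.4, 0, 8.0 and 8.4 CPM. These groups overlapped and held 1 to 5 and 0 to 5 reads per library, too few for the filter on low counts. The refed fish lay below all 21dpS starved fish (log2 fold change of -3.30, SE 0.53). The effect at 3dpR minus that at 21dpS was -2.56 on the log2 scale, with an SE of 1.19.

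At 3dpS *arg2* was already higher in every starved fish (19.7, 31.8, 23.3 and 26.9 CPM) than in every fed control (11.5, 10.2 and 1.5 CPM). The log2 fold change was 1.72 (SE 0.50), which did not pass the test over all genes (edgeR, p = 0.00436, adjusted p = 0.131; DESeq2, adjusted p = 0.139), while the exact permutation test, two-sided, gave p = 0.0286, the smallest it can give. Without library Fed1Gut1 it was 2.095 (edgeR adjusted p = 0.0809), and without Fed2Gut3, the fed control with 1 read, 1.22 (edgeR adjusted p = 0.456).

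Liver markers were uneven between fish beside these *arg2* values. All 7 tested liver markers were higher in starved fish at 3dpS (7 of 8 without library Fed1Gut1; summed level of 129 to 1626 CPM in starved and 287 to 844 CPM in fed fish), as were 3 of 4 at 21dpS (255 to 485 CPM against 62.3 to 782 CPM in fed fish), and all 4 were lower in refed than in 21dpS starved fish (20.5 to 265 CPM). At 3dpR, where the *arg2* groups overlapped, all 3 tested liver markers had lower values in refed than in fed fish (median log2 fold change of -1.57). edgeR called 0 liver markers in each comparison, with 0, 1, 0 and 2 at an unadjusted p under 0.05 at 3dpS, 21dpS, 3dpR and between refed and 21dpS starved fish, and DESeq2 called 1 in the last and 0 in the others. The starved fish with the highest *arg2* level had the lowest liver sum of its group at 3dpS (31.8 and 129 CPM) and at 21dpS (93.2 and 255 CPM). These are different fish that share the library name Sta1Gut2. In the 3dpS fed controls the fish with the highest *arg2* level also had the lowest liver sum (11.5 and 287 CPM). In the 21dpS fed controls it had the highest liver sum (22.2 and 782 CPM). At 3dpR its liver sum was neither the lowest nor the highest, both in fed controls (8.4 and 305 CPM) and in refed fish (10.4 and 68.7 CPM). The part of the liver markers in the *arg2* values was not tested.

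The genes that make polyamines were counted at low depth. *odc1*, the ornithine decarboxylase gene, had 17 reads in all and 0 reads in 13 of the 23 libraries. The 21dpS starved fish held 10 of these reads (3, 1, 1 and 5 per fish) and the 21dpS fed controls 4 (2, 0, 1 and 1). No read was counted in the 3dpS fed controls or the 3dpR refed fish, which allows up to 3 reads per library. The 21dpS starved fish (1.59 to 7.27 CPM) and the refed fish (0 CPM) thus did not overlap, with 2 of the starved fish below 3 reads. Of the genes kept by the filter in that comparison, 11.4% were lower in refed fish without overlap, so nothing is read from this. Between fed and starved or refed fish of 1 time point the values overlapped, and no difference in *odc1* was detectable there at this depth.

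*amd1*, whose product decarboxylates S-adenosylmethionine, had 2 to 12 reads per library, 173 in all. In CPM it was 18.7, 8.2, 8.1 and 5.9 in the 21dpS fed controls and 6.2, 9.2, 12.8 and 11.6 in the 21dpS starved fish, with overlap. At 3dpR it was 13.3, 3.0, 12.0 and 8.4 CPM in fed controls and 17.2, 20.8, 20.1 and 10.3 CPM in refed fish, again with overlap, although 3 of the 4 refed fish lay above all fed controls. It passed the filter only at 3dpS, where the log2 fold change was -0.17 (edgeR adjusted p = 0.921) and its sign depended on single libraries. In RefSeq's GRCz12tu annotation *amd1* overlaps *cdk19*, so its reads may be shared, whereas no overlapping gene was listed for the other members.

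*srm* encodes spermidine synthase and had 2 to 14 reads per library, 151 in all. Its values at 21dpS were 7.8, 9.9, 8.1 and 11.7 CPM in fed and 21.7, 9.2, 11.2 and 10.2 CPM in starved fish, with overlap and with 1 starved fish far above the rest. At 3dpR they were 11.8, 6.0, 8.0 and 6.3 CPM in fed and 8.6, 6.2, 3.7 and 8.2 CPM in refed fish. The refed fish lay below all 21dpS starved fish (3.66 to 8.60 CPM against 9.22 to 21.7 CPM), at 2 to 4 against 5 to 14 reads. Of the genes kept by the filter in that comparison, 11.4% were lower in refed fish without overlap, so nothing is read from this. *srm* passed the filter in no comparison. At 3dpS, where fed controls ranged from 4.92 to 12.4 CPM and starved fish from 8.57 to 21.2 CPM, an exact permutation test gave p = 0.343, and the lowest fed value was that of library Fed1Gut1 (the others were 11.6 and 12.4 CPM).

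*sms*, the spermine synthase gene, had 48 reads in all and 0 to 7 per library, and 3 libraries were at 0. Fed controls and starved fish held 5 and 13 reads in total at 3dpS (3 and 4 fish), and 8 and 7 reads at 21dpS. At 3dpR the totals were 7 reads in fed and 8 in refed fish. *oat*, the ornithine aminotransferase gene, had 4 reads, 2 of them in the 21dpS fed controls and 2 in the 3dpR fed controls, and 19 libraries were at 0. No difference between diets was detectable for these genes at this depth.

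Of the 7 matched members, 3 passed the filter at 3dpS (*sat1a.1*, *amd1* and, through the starved fish, *arg2*). edgeR called none of them, while 2 had an unadjusted p under 0.05, and DESeq2 called none either. Of all genes tested at 3dpS, edgeR called 0.531% and DESeq2 2.45%, and 15% had an unadjusted p under 0.05 in edgeR. Without library Fed1Gut1, which leaves fed controls of tank 2 alone, edgeR called 116 of 4368 genes in place of 21 of 3953. Again none of the members was called. Groups that did not overlap were found for 7.29% of all tested genes with higher and 6.73% with lower levels in starved fish, against 1 member each (*arg2* and *sat1a.1*). At 21dpS *sat1a.1* and *arg2* passed the filter, and *sat1a.1* was called lower, where 2.81% of all genes were called and 1.65% were called lower. Groups without overlap made up 5.37% (lower) and 7.21% (higher) of all genes there. The choice of the genes used this comparison, and nothing is read from these counts. Only *sat1a.1* passed at 3dpR, without being called (0.0349% of all genes were). *sat1a.1* and *arg2* were called between refed and 21dpS starved fish, where 11.3% of all genes were (5.22% higher and 6.12% lower in refed fish). Groups without overlap made up 6.62% (higher) and 11.4% (lower) of all genes there. The choice of the genes had these comparisons in view as well, and nothing is read from their counts either.

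**Figure D2:**
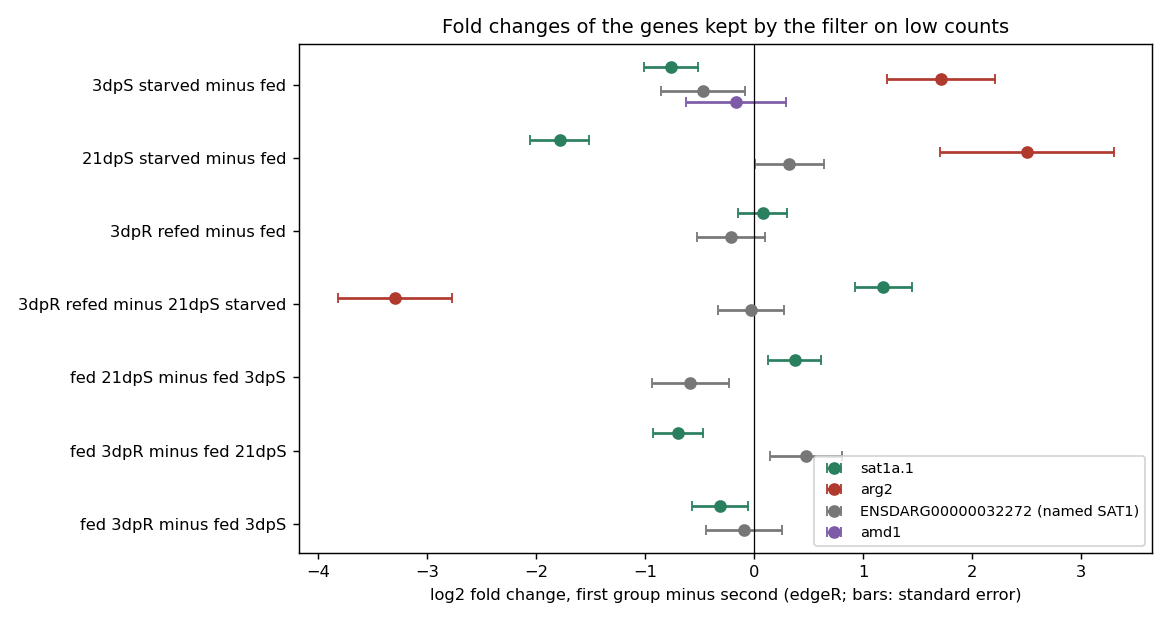
Log2 fold change (edgeR; bars, SE) of the genes kept by the filter on low counts, with the comparisons on the vertical axis and the first named group minus the second on the horizontal axis. For *sat1a.1* the value is -1.79 at 21dpS and 0.08 at 3dpR, for *arg2* it is 2.50 at 21dpS, and ENSDARG00000032272 lies between -0.59 and 0.48 throughout.

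The wider pathway was read from lists of 92 symbols, 63 of which were matched to 1 identifier. At 3dpS 18 of them were tested and none was called by edgeR (0 at an unadjusted p under 0.05, 0 by DESeq2). The starved fish had higher levels for 7 and lower levels for 11 of them, with a median log2 fold change of -0.17, beside 0.01 over all genes tested. Without library Fed1Gut1 edgeR called 0 of 19, 3 had an unadjusted p under 0.05, and the median was -0.08, beside 0.05 over all genes. At 21dpS 14 were tested, 4 higher and 10 lower in starved fish, with a median of -0.14 beside -0.02 over all genes. edgeR called 0 of these 14, 5 had an unadjusted p under 0.05, and DESeq2 called 1, where 20.9% of all genes had such a p and DESeq2 called 5.28%.

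That gene was *ckbb*, a creatine kinase that stores high-energy phosphate on creatine, which is made from arginine. Its mean level at 21dpS was 104 CPM in fed and 44.9 CPM in starved fish (log2 fold change of -1.30, SE 0.34, edgeR adjusted p = 0.0542; DESeq2 adjusted p = 0.0241). It was the 1 gene of the 13 tested that was called between refed and 21dpS starved fish. There edgeR called 11.3% of all genes (5.22% higher in refed fish), so nothing is read from this count. The mean of *ckbb* in refed fish was 84.1 CPM (log2 fold change of 0.97, SE 0.30, edgeR adjusted p = 0.0475). This call was lost with DESeq2 (adjusted p = 0.0556; 7.97% of all genes were called), without a filter on low counts (0.117), with tank number as a replicate block (0.0571), in 1 fit on all 23 libraries (0.0759) and without any of 7 of the 8 libraries. The creatine transporter gene *slc6a8* had means of 234 CPM in fed and 181 CPM in starved fish at 21dpS (log2 fold change of -0.44, SE 0.26, edgeR adjusted p = 0.359).

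Among the genes by which ornithine, proline and glutamate are interconverted, *glud1b* (glutamate dehydrogenase) had means of 113 CPM in fed and 68.7 CPM in starved fish at 21dpS (log2 fold change of -0.79, SE 0.28, edgeR adjusted p = 0.134). *aldh4a1*, whose product makes glutamate in proline breakdown, had 26.0 and 15.3 CPM (-0.80, SE 0.35, edgeR adjusted p = 0.211). Neither was called. Their levels at 3dpR were 120 CPM in fed and 101 CPM in refed fish for *glud1b*, and 35.8 and 21.9 CPM for *aldh4a1*.

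Of 3 transporter genes tested at 21dpS, 1 had higher and 2 had lower values in starved fish. *slc3a1*, a subunit of the apical carrier that takes up dibasic amino acids such as arginine and ornithine, had a mean of 32.3 CPM in the 21dpS fed controls and was 1.72-fold higher in the starved fish, without overlap (log2 fold change of 0.78, SE 0.33, edgeR adjusted p = 0.188). Groups without overlap and with a higher level in starved fish made up 7.21% of all genes tested at 21dpS, and this was 1 of the 14 pathway genes. *slc3a2a*, a heavy chain shared by several amino acid exchangers, had 113 CPM in both groups (log2 fold change of -0.07, SE 0.28, edgeR adjusted p = 0.922).

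Of the genes that use polyamines or feed their synthesis, those named next were not called at 21dpS, where *enoph1* was among the 5 with an unadjusted p under 0.05. *eif5a* and *eif5a2* encode the translation factor that carries hypusine, a residue made from spermidine, and had log2 fold changes of 0.37 (SE 0.30) and -0.34 (SE 0.44) at 21dpS (edgeR adjusted p = 0.512 and 0.720). In the salvage of methylthioadenosine, a by-product of spermidine and spermine synthesis, *enoph1* had means of 76.2 CPM in fed and 123 CPM in starved fish at 21dpS (0.63, SE 0.27, edgeR adjusted p = 0.206), and 77.3 CPM in fed and 114 CPM in refed fish at 3dpR (0.57, SE 0.26, edgeR adjusted p = 0.653). *ahcy*, which cleaves S-adenosylhomocysteine, had a log2 fold change of -0.27 (SE 0.35, edgeR adjusted p = 0.721) at 21dpS. *agmat*, named for agmatinase, and *prmt9*, an arginine methyltransferase, had log2 fold changes of -0.03 (SE 0.34) and -0.14 (SE 0.52) at 21dpS.

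Of 6 symbols listed for polyamine acetylation and oxidation beyond *sat1a.1*, 4 were matched. Among these only *paox*, the gene of an oxidase of acetylated polyamines, passed the filter. Among the comparisons of diets it did so only at 3dpS (19.7 CPM in fed and 12.2 CPM in starved fish, log2 fold change of -0.65, SE 0.46, edgeR adjusted p = 0.566; -0.52 and 0.668 without library Fed1Gut1). Antizymes inhibit ornithine decarboxylase. Of 7 symbols of antizymes and their inhibitors only 2 were matched (*oaz1b* and *oaz2b*), and neither passed the filter. The unmatched symbols were not examined. At 3dpR 13 pathway genes were tested and edgeR called 0 (1 at an unadjusted p under 0.05, as had 7.51% of all genes, and 0 by DESeq2, which called 0.209% of all genes), with a median log2 fold change of -0.28 beside -0.02 over all genes.

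**Figure D3:**
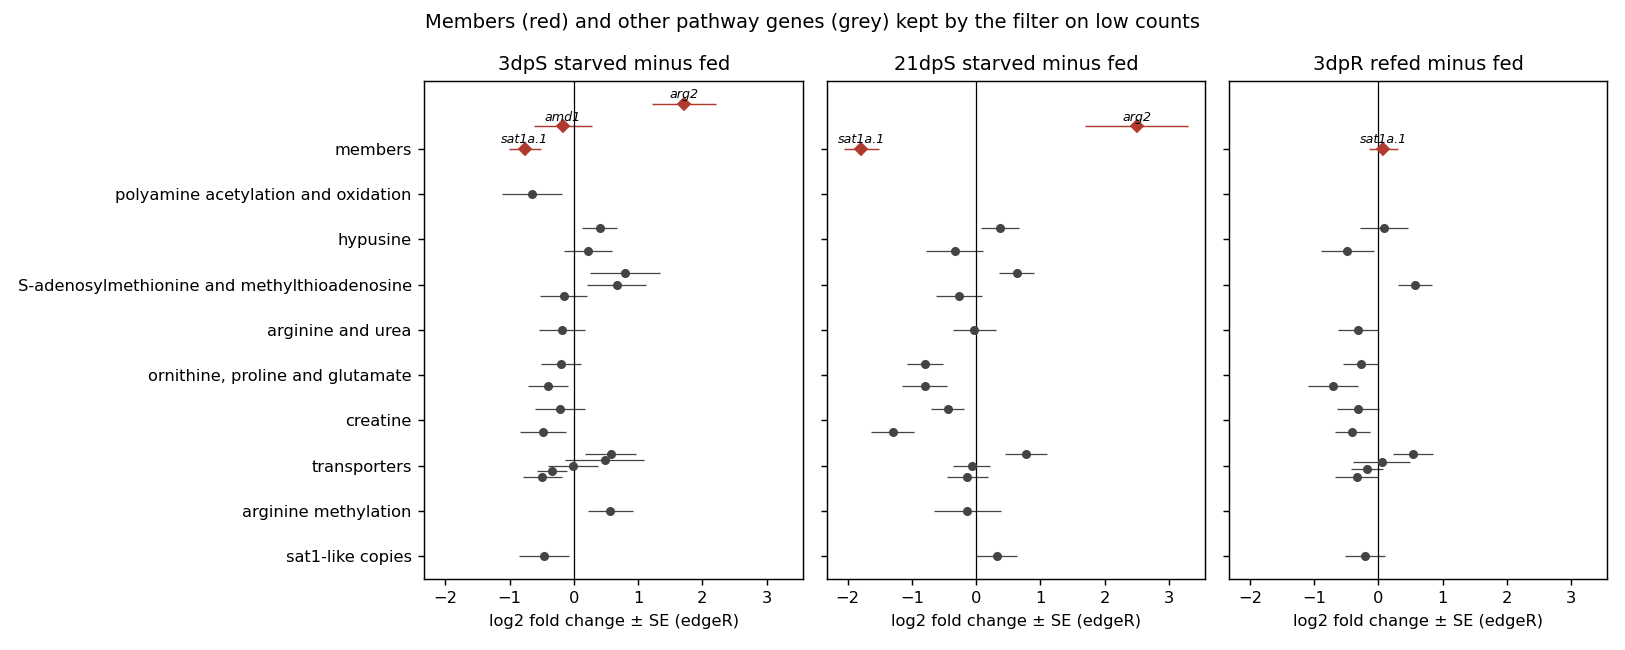
Log2 fold change ± SE (edgeR) of the members (red diamonds) and the other pathway genes (grey points) kept by the filter on low counts, by list, for starved against fed fish at 3dpS and 21dpS and refed against fed fish at 3dpR. At 21dpS the pathway genes lie between -1.30 (*ckbb*) and 0.78 (*slc3a1*), and the members are *sat1a.1* (-1.79) and *arg2* (2.50). The members were chosen with this comparison in view, so they are not compared with the pathway genes.

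The genes with profiles most like *sat1a.1* were sought over the 23 libraries, by the root mean square difference of log2 CPM after each gene was centred on its own mean. Of 4724 other genes, with a median difference of 0.81, the nearest were *apobb.1* (0.36), an apolipoprotein B gene, *CYB5A* (0.40), a cytochrome b5 gene, *apoea* (0.41), an apolipoprotein E gene, *MTM1* (0.42, at a mean of 7.48 reads per library) and *FADS3* (0.42), of the fatty acid desaturase family. Mean levels of *apobb.1* were 1665 CPM in fed and 756 CPM in starved fish at 21dpS, and 1147 CPM in fed and 1240 CPM in refed fish at 3dpR. *apoea* stood at 641 and 234 CPM at 21dpS and at 486 and 357 CPM at 3dpR. These genes were found by their likeness to *sat1a.1*, so their order of groups is no separate result. *FADS3* is the symbol that the gene name table gives to ENSDARG00000019532. The paper proposes that the lower *fads2* level at 21dpS may stem in part from high fed levels at that time. Whether the gene named *FADS3* here is that *fads2* was not checked.

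**Figure D4:**
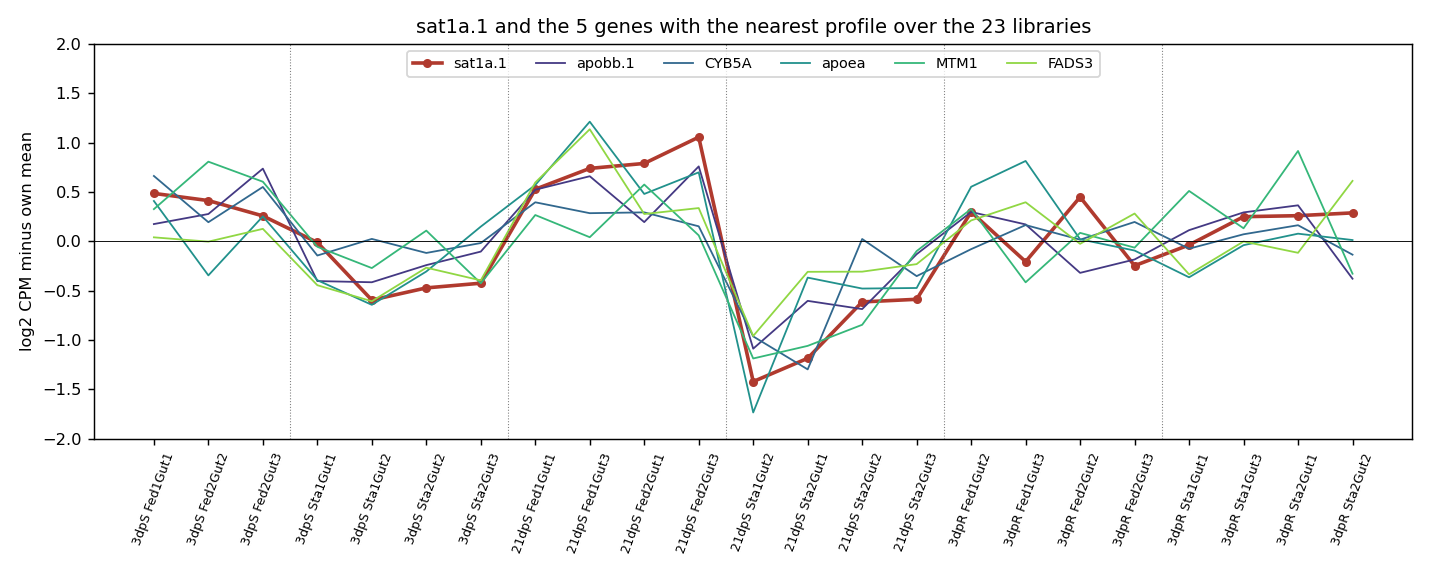
Log2 CPM minus each gene's own mean over the 23 libraries, for *sat1a.1* (red, with points) and the 5 genes nearest to it, with dotted lines between the groups of fish. *sat1a.1* is below its mean in all 3dpS (by 0.01 in 1 fish) and 21dpS starved fish and above it in all 3dpS and 21dpS fed controls.

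With TMM-scaled library sizes, the filter on all 23 libraries also kept *amd1*, *srm* and *arg2*. Their nearest profiles were those of *LRBA* for *amd1* (0.39, where the median over genes was 0.72), *hemgn* for *srm* (0.35, median 0.69) and *ETF1*, a translation termination factor gene, for *arg2* (0.90, median 1.46). The difference was largest for *arg2*, whose own SD over the 23 libraries was also largest (1.40, against 0.49 for *amd1* and 0.45 for *srm*). Profiles were not scaled to this spread, so nearness is not compared between members. Mean levels of *ETF1* were 86.9 CPM in fed and 174 CPM in starved fish at 21dpS and 59.8 CPM in fed and 47.4 CPM in refed fish at 3dpR.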

How the data were processed

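Per the labels and the study's methods, total intestinal RNA depleted of ribosomal RNA was sequenced as single-end reads, and the authors deposited, for each library, raw read counts by Ensembl gene (Trim Galore, STAR on GRCz10, HTSeq), without normalization. The annotation release is not given in the sources used here. The tests used edgeR 4.0.16 under R 4.3.3 (filterByExpr, TMM, robust quasi-likelihood fits on the groups of each comparison, two-sided, Benjamini-Hochberg adjustment over all genes kept, called at an adjusted p under 0.05). Log2 CPM used a prior count of 2. DESeq2 1.42.0, RLE factors, no filter, tank number as a replicate block, 1 fit on all 23 libraries and omission of each library were the alternatives. The members and lists were chosen with earlier results of these data known. Named were the members, every pathway gene called in the main edgeR fits, the 2 tested genes with the highest mean CPM of each list, and the genes nearest to a member. Replicates are single fish, so the spread behind a p-value is that between fish, not tanks. The edgeR fits were tested on simulated data. No sequences are shown.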

Additional observations from a re-analysis of the deposited data

Results flagged for a closer look

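Of 30 groups of 4 fish examined for a single value far from the others, 3 held one, and chance alone gives about 1 in 20. In the 3dpR refed fish, *sat1a.1* was at 163.3 CPM in library Sta1Gut1, while the others lay between 199.9 and 205.4 CPM. In the 21dpS starved fish, *srm* was at 21.7 CPM (14 reads) in library Sta1Gut2, against 9.22 to 11.2 CPM in the others. In the 3dpR fed controls, *arg2* was at 0 CPM in library Fed1Gut3, against 7.39 to 8.40 CPM in the others, each a matter of few reads. Of the 23 pathway genes tested for a difference between the effects at 2 time points, none was called (smallest edgeR adjusted p = 0.457 for 21dpS against 3dpS and 0.507 for 3dpR against 21dpS).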

How the results depend on the processing

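The fold changes of *sat1a.1* and *arg2* kept their direction under every alternative run. Those of *sat1a.1*, and of *arg2* at 3dpS and between refed and 21dpS starved fish, also kept their side of the threshold. Outside 3dpS this only describes genes chosen with such values in view, and nothing is read from it. At 3dpS *arg2* passed the filter through the starved fish, so nothing is read from its values there either. *arg2* at 21dpS, described without a test and not called by edgeR, was called without a filter (log2 fold change of 2.54) and in 1 fit on all 23 libraries (2.57). The count of pathway genes called at 21dpS, 0, became 1 with DESeq2, without a filter, with tank number as a replicate block and in 1 fit on all 23 libraries, and ranged from 0 to 1 with 1 library left out (1 without fed replicate 3 or starved replicate 1). Between refed and 21dpS starved fish the count of 1 became 0 with DESeq2, with the replicate block and in 1 fit on all 23 libraries. It ranged from 0 to 1 with 1 library left out. Without a filter the count stayed at 1, but *ckbb* was not called there (edgeR adjusted p = 0.117), so the gene was another. For *amd1* at 3dpS, the log2 fold change ranged from -0.40 to 0.0593 with 1 library left out, and was above 0 without 3dpS fed replicate 1 (0.0593) or starved replicate 2 (0.0138). Fed and starved tanks share only a number: same-numbered tanks deviated together with r = -0.02 at 3dpS, 0.24 at 21dpS and -0.26 at 3dpR across genes, which are not independent replicates. The causes of these changes were not tested. No library held more than 5 reads of *odc1* or 1 of *oat*, so small differences in these genes could not be seen.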
